A study of Mus musculus with 12 samples.

Results

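The YYFF clone of mouse embryonic fibroblasts was compared after 4 passages on laminin (YYFF L4, 2 arrays) and before any such passage (YYFF L0, 2 arrays). These 4 of the 12 arrays of the series were taken by the titles of the samples, and no measured value entered the choice. The cells of both groups came from C57BL/6 embryos, labelled as female and as embryonic day 13 with a decimal that differs in each of the 12 labels. SV40 large T was used to immortalize them, and they carry the β1 integrin mutation called YYFF. The other groups compared here are YYFF L8 (8 laminin passages), WT L4 and WT L0, each with 2 arrays. WT cells are a clone with the wild type β1 subunit, also immortalized with large T. WT L4 and WT L0 had the same numbers of passages as YYFF L4 and YYFF L0. WT L8 (8 laminin passages, 2 arrays) is in no tested contrast, but its values are given for some genes. For each laminin passage the cells were left overnight on laminin without serum, got normal medium the next day, and after the last passage they grew on plastic. L4 cells were thus also cultured longer than L0 cells. Laminin passage and time in culture cannot be told apart, and each genotype is 1 clone, so genotype and clone cannot be told apart either. The labels do not say whether the 2 arrays of a group came from separate cultures, so p-values take in no more than the differences among arrays, which may be technical.

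Integrins are receptors of an α and a β subunit that tie the cell's actin skeleton to the matrix outside. Laminin is a protein of basement membranes that fibroblasts hold mainly through integrins with the β1 subunit. A dividing cell must pull its daughters apart with an actomyosin ring and a last cut at the midbody, and adherent cells need traction on the matrix for it. Per the labels' protocols, YYFF cells on laminin alone cannot complete this step, and the passages were made to let it fail repeatedly. Large T is known to bind p53 and the Rb family, brakes on the division of cells with extra chromosome sets.

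Over the 8891 genes tested the 2 YYFF L4 arrays correlated with r of 0.9938 and the 2 YYFF L0 arrays with r of 0.9942, across genes, which are not independent replicates. Between 10963 and 11050 probes were above background on the YYFF L4 arrays, and between 11541 and 11766 on the YYFF L0 arrays. Of 10 fibroblast markers 8 were tested, and 7 were above background on all 4 arrays. Vimentin, Vim, was at 14.17 and 14.22 on the YYFF L4 arrays, against 13.78 and 13.80 on the YYFF L0 arrays, 1 of 2 markers that rose. Another 2 fell, Col1a1 (-0.79 ± 0.15) and Pdgfra (-3.63 ± 0.22, on 1 of 2 L4 arrays above background). The brightest probe of Col3a1 (-1.72 ± 0.68) did not pass, while a second probe did, as lower (-1.12 ± 0.19). No tested marker of epithelium (3 of 6 tested), endothelium (1 of 6) or skeletal muscle (1 of 5) was above background on all 4 arrays, though 2 of the epithelial ones passed as higher in YYFF L4. Of 8 leukocyte markers 2 were tested, 1 higher and 1 lower in YYFF L4. Cd14, a receptor for bacterial lipopolysaccharide, was at 8.79 and 8.91 on the YYFF L4 arrays, against 7.27 and 7.0 on the YYFF L0 arrays, the T cell gene Cd3e fell (adjusted p = 0.0323) to below background on both L4 arrays, and the pan-leukocyte marker Ptprc was among those detected on too few arrays to be tested. The summed linear signal of both tested leukocyte markers, most of it that of Cd14, was 474 and 507 in YYFF L4, against 197 and 177 in YYFF L0. That of 2 tested pericyte markers was 487 and 440 in YYFF L4, against 308 and 257 in YYFF L0, but they moved in opposite directions: Cspg4 was at 8.80 and 8.65 in YYFF L4, against 7.38 and 7.26 in YYFF L0 and rose (adjusted p = 7.34e-05), and Mcam was at least 2.46-fold lower (adjusted p = 4.55e-05). The part of these markers in any result below was not tested. In such bulk RNA, fewer cells that express a gene and less of its RNA per cell cannot be told apart. Itgb1, the β1 subunit itself, had a normalized log2 signal of 9.05 and 9.16 on the YYFF L4 arrays, against 9.20 and 8.91 on the YYFF L0 arrays. These values overlap, and the change of 0.05 ± 0.15 did not pass (adjusted p = 0.821). In WT cells Itgb1 fell from L0 to L4 (-0.53 ± 0.15, adjusted p = 0.0426 by limma). The difference between the clones (0.58 ± 0.21) did not pass. Such a probe gives the level of the transcript, not its sequence.

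All changes are given on the log2 scale as L4 minus L0 with the standard error (SE) from a limma fit, with n = 2 arrays per group, and "rose" and "fell" mean a Benjamini-Hochberg adjusted p under 0.05 over all 8891 genes. Of these genes 2803 changed in YYFF L4 vs YYFF L0 (31.5%), 1278 higher (14.4%) and 1525 lower (17.2%). With median scaling of the arrays in place of quantile normalization the count was 1789. At least 2-fold changes were made by 906 genes (10.2%), 326 higher and 580 lower. The larger changes leaned downward: 75 genes were at least 4-fold higher and 191 at least 4-fold lower, and at 16-fold the counts were 6 and 28. Among genes above background on all 4 arrays the counts were nearly even, at 1106 higher and 1135 lower. A further 119 genes were above background on both L4 arrays and on neither L0 array, of which 95 rose. Another 434 genes were above background on both L0 arrays and on neither L4 array, of which 315 fell. The direction of the calls within each class follows from the rule that sets the class. The values of the groups did not overlap for 6191 genes (69.6%). The median change of all genes was 0.02.

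The largest rises among genes measured on all 4 arrays included surface, lipid and detoxifying genes. Ly6c1, a lipid-anchored surface protein, was at 12.43 and 12.18 on the YYFF L4 arrays, against 7.60 and 7.76 on the YYFF L0 arrays, a change of 4.63 ± 0.12 (adjusted p = 4.03e-08). The array values lie within 0.3 of each other in each group, and the groups are far apart. Plxna2, a receptor for semaphorins, was at 10.05 and 9.81 on the YYFF L4 arrays, against 6.41 and 6.25 on the YYFF L0 arrays (change 3.60 ± 0.18, adjusted p = 8.68e-07). Nnmt, which methylates nicotinamide, was at 9.79 and 9.81 in YYFF L4, against 6.52 and 6.84 in YYFF L0, a change of 3.12 ± 0.38. Ckb, the brain form of creatine kinase, was already bright before laminin, with means of 13.96 in YYFF L4 and 11.18 in YYFF L0 (change 2.78 ± 0.09). Decorin, Dcn, a small proteoglycan that binds collagen, rose by 3.03 ± 0.10, and a second probe of Dcn rose too, by 1.71. The glutathione transferase Gsta1 rose by 2.98 ± 0.30, and Renbp, an enzyme of amino sugar metabolism known as the renin-binding protein, by 2.89 ± 0.57. Eps8, which caps and bundles actin filaments, rose by 2.82 ± 0.19, Fam20a, a partner of secretory pathway kinases, by 2.71 ± 0.15, and Itgbl1, a secreted protein related to β integrins, by 2.76 ± 0.38. Them6 (2.82 ± 0.13) and Ccdc68 (2.72 ± 0.14) complete the list with Itgb7, Scd2 and Insig1, which are described with their families.

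The largest falls included interferon-induced genes and secreted and junction proteins. Ptn, the growth factor pleiotrophin, was at 6.45 and 6.82 on the YYFF L4 arrays, against 11.47 and 11.41 on the YYFF L0 arrays, a change of -4.81 ± 0.22 (adjusted p = 5.52e-07). Matrix Gla protein, Mgp, which keeps soft tissue from calcifying, was at 8.08 and 7.71 on the YYFF L4 arrays, against 12.60 and 12.63 on the YYFF L0 arrays (change -4.72 ± 0.16). Both were among the bright genes of the L0 cells and dim in the L4 cells, with no overlap. Gjb2, which encodes the gap junction protein connexin 26, was at 7.32 and 7.29 in YYFF L4, against 11.59 and 11.48 in YYFF L0, a change of -4.23 ± 0.10. Cd59a, which protects cells from complement, was at 7.0 and 7.07 in YYFF L4, against 11.21 and 11.29 in YYFF L0. Flrt3, a transmembrane adhesion protein and ligand of Unc5 receptors, fell by 3.76 ± 0.15. Ddit4l, an inhibitor of the growth kinase mTOR, fell by 3.96 ± 0.15. Rcan2, a regulator of the phosphatase calcineurin, fell by 3.38 ± 0.13. The remaining 8 are Oasl2, Usp18, Irgm2, Ifi27l2a, Gbp3 and Oas1g of the interferon response, the chemokine gene Ccl5 and the netrin receptor gene Unc5c.

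**Figure D1:**
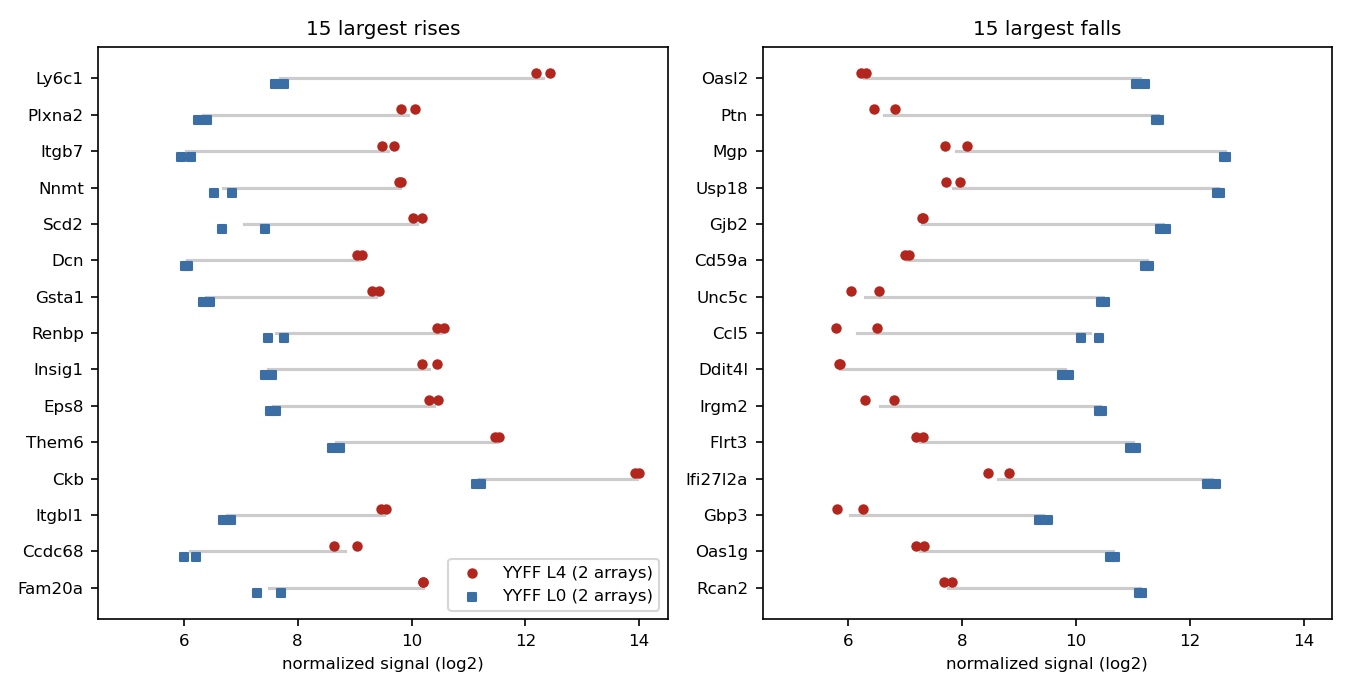
Normalized log2 signal of the 15 genes with the largest rises (left) and the 15 with the largest falls (right) that were above background on all 4 arrays and past the threshold with any 1 array left out. Red circles are the 2 YYFF L4 arrays, blue squares the 2 YYFF L0 arrays, and grey lines join the group means. No gene shows an overlap of the groups.

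Genes that crossed the background limit have only a bound on their change. Has1, a hyaluronan synthase, was at 9.72 and 9.65 on the YYFF L4 arrays, against 4.90 and 4.88 on the YYFF L0 arrays, with neither L0 array above background, which makes it at least 19.1-fold higher (adjusted p = 3.98e-06). Dusp4, a phosphatase that switches off MAP kinases in the nucleus, was at 9.30 and 9.45 in YYFF L4, against 5.29 and 5.35 in YYFF L0 (at least 15.4-fold higher, adjusted p = 5.09e-08). Gna14, a G protein α subunit, was at least 13.3-fold higher (adjusted p = 1.54e-05), and Gfpt2, the first enzyme of the hexosamine pathway, at least 12.6-fold higher (adjusted p = 4.82e-05). Cd55, which speeds the decay of complement convertases, was at least 8.7-fold higher (adjusted p = 2.71e-07), and the nuclear receptor gene Rorb at least 7.77-fold higher (adjusted p = 3.85e-07). All 6 were above background on both L4 arrays only. In the other direction Apod, the lipid carrier apolipoprotein D, was at 4.81 and 4.68 on the YYFF L4 arrays, against 11.07 and 10.81 on the YYFF L0 arrays (at least 40-fold lower, adjusted p = 8.6e-08). Ednrb, the endothelin receptor B, was at 5.04 and 4.66 in YYFF L4, against 10.42 and 10.35 in YYFF L0 (at least 27.3-fold lower, adjusted p = 1.11e-07). Both went below background after being well expressed. Gas6, the ligand of the Tyro3, Axl and Mertk kinases, was at least 31.2-fold lower (adjusted p = 3.77e-08) and Col18a1, the collagen that yields endostatin, at least 22.8-fold lower (adjusted p = 1.13e-07), while a second probe of Col18a1 did not pass (-0.23). Tmem176b was at least 20.1-fold lower (adjusted p = 1.67e-07), and Fxyd6, a modulator of the sodium pump, at least 20-fold lower (adjusted p = 3.05e-08).

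Genes of the division machinery moved about as often as genes at large. Of 29 tested genes of cytokinesis, midbody and abscission, 6 rose and 3 fell, which is 31% against 31.5% of all genes, and the median change was 0.07. The count of 9 calls falls to 2 with median scaling of the arrays and to 5 without YYFF L4 replicate 1. None of the 4 tested genes that activate RhoA and build the central spindle passed, and Plk1, the kinase that starts furrow ingression, was at 10.95 and 11.04 in YYFF L4, against 11.24 and 11.22 in YYFF L0. In the abscission group 4 of 11 rose and 1 fell. Cep55, the midbody scaffold that recruits the cutting machinery, was at 8.70 and 8.97 on the YYFF L4 arrays, against 7.83 and 7.58 on the YYFF L0 arrays, a change of 1.13 ± 0.25 (adjusted p = 0.00789). Pdcd6ip, known as ALIX, which links Cep55 to the ESCRT-III filaments, rose by 0.61 ± 0.14, the ESCRT-III subunit Chmp3 by 0.59 ± 0.17 and the ATPase Vps4a, which takes these filaments apart, by 0.49 ± 0.10. Chmp2a, another ESCRT-III subunit, fell by 0.45 ± 0.11. Of 11 contractile ring genes, the heavy chains of nonmuscle myosin Myh9 (-0.62 ± 0.12) and Myh10 (-0.88 ± 0.15) fell, and Septin9, a filament that stabilizes the ring, rose (0.58 ± 0.12). Birc5, survivin, of the chromosomal passenger complex rose by 0.37 ± 0.09. Changes of Cep55, Pdcd6ip, Chmp2a, Vps4a and Birc5 differed from those in WT cells (differences between the clones 1.33 ± 0.35, 1.37 ± 0.19, -0.76 ± 0.15, 0.50 ± 0.14 and 0.40 ± 0.12), while those of Chmp3, Myh9, Myh10 and Septin9 were not shown to differ.

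Of 22 spindle checkpoint, kinetochore and centrosome genes, 4 rose and 0 fell (18.2%, median 0.23), beside 31.5% of all genes called. Mad2l1, the checkpoint protein that blocks anaphase, was at 11.61 and 11.65 on the YYFF L4 arrays, against 10.92 and 10.95 on the YYFF L0 arrays (change 0.69 ± 0.12, adjusted p = 0.00182). Mad1l1, its partner, rose by 0.30 ± 0.10, the centromeric histone gene Cenpa by 0.43 ± 0.10 and the spindle pole kinase gene Aurka by 0.39 ± 0.10. The count ranges from 1 (median scaling, or without YYFF L0 replicate 2) to 8 (a stricter filter on dim probes), and is 2 without either YYFF L4 replicate. Of 24 DNA replication genes 1 passed (4.17%), the polymerase δ subunit gene Pold1, which fell by 0.32 ± 0.09, a call that is lost when any 1 of the 4 arrays is left out. Licensing genes had changes from -0.15 (Cdt1) to 0.31 (Orc2, above background on 1 of 2 L0 arrays), none of them past the threshold. Pcna, the sliding clamp, was at 7.84 and 7.68 in YYFF L4, against 7.71 and 7.58 in YYFF L0, values that overlap. By limma with Benjamini-Hochberg adjustment, 4 of 15 genes of the DNA damage response fell and 0 rose (26.7%): the histone gene H2ax (-0.83 ± 0.09), the kinase gene Atm (-0.65 ± 0.20), and the repair genes Ercc1 (-0.46 ± 0.12) and Msh6 (-0.44 ± 0.10). The count is 2 under median scaling and 1 without YYFF L4 replicate 1, YYFF L4 replicate 2 or YYFF L0 replicate 1. Second probes of Atm (-0.51) and Msh6 (-0.39) did not pass.

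Among 22 tested p53 targets, 14 fell and 1 rose (68.2% called), with a median of -1.20 (or -1.08 where 2 of them enter at their bound), against 0.02 for all genes. Cdkn1a, which encodes the cell cycle inhibitor p21, was at 10.59 and 11.01 on the YYFF L4 arrays, against 12.68 and 12.81 on the YYFF L0 arrays, a change of -1.94 ± 0.15 (adjusted p = 1.25e-05). Ccng1 fell by 1.65 ± 0.10, Gadd45a by 1.69 ± 0.17 and the sestrin gene Sesn2 by 1.61 ± 0.16, while Sesn1 rose by 0.36 ± 0.10. Second probes of Sesn1 (0.12) and of Apaf1 below (-0.36) did not pass. In the death group Trp53inp1 was at 7.72 and 7.72 in YYFF L4, against 10.50 and 10.50 in YYFF L0 (change -2.78 ± 0.10), the apoptosome gene Apaf1 fell by 0.61 ± 0.12 and Zmat3 by 1.48 ± 0.19, while the BH3-only genes Bbc3 (-0.24 ± 0.15) and Pmaip1 (-0.12 ± 0.16) did not pass. Fas, the death receptor, was at 5.54 and 5.87 in YYFF L4, against 9.15 and 9.14 in YYFF L0, with 1 of 2 L4 arrays above background, and in WT cells at 7.44 and 7.37 in WT L4, against 7.06 and 7.14 in WT L0. These genes also differed before laminin: 18 of the 22 lay above the WT L0 level in YYFF L0 and 1 below it (median difference 1.09), where 14.7% of all genes were higher and 12.2% lower. YYFF L0 arrays enter both comparisons. In WT cells 10 of the 22 fell and 1 rose between L0 and L4 (median -0.24), where 7.99% of all genes fell and 7.49% rose. Mdm2, the ubiquitin ligase that degrades p53, gave mixed probes: the brightest fell by 1.75 ± 0.12 and another by 1.57, but the remaining one rose by 0.77 ± 0.25, the only case where 2 probes of a named or listed gene passed in opposite directions. Of the other pairs of probes 117 passed in the same direction, in 66 only 1 probe passed and in 126 neither did.

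Of 19 cyclins, CDK inhibitors and Rb family genes 6 fell and 3 rose (47.4%). The count of 9 calls falls to 5 under median scaling or without YYFF L0 replicate 2. Ccnd2, cyclin D2, was at 10.96 and 10.92 on the YYFF L4 arrays, against 12.42 and 12.53 on the YYFF L0 arrays (change -1.53 ± 0.25), and in WT cells at 5.0 and 4.95 in WT L4, against 10.08 and 10.50 in WT L0, below background on both WT L4 arrays. Both clones fell, WT cells by more (adjusted p = 8.18e-05 for the difference). Cyclin D1, Ccnd1, fell by 0.51 ± 0.11, also by less than in WT (-0.51 ± 0.11 against -1.13 ± 0.11). Rb1, the retinoblastoma gene, fell by 0.59 ± 0.19 and its relative Rbl1 by 0.43 ± 0.12. In a limma fit over probes, neither the brightest probe of Rb1 (adjusted p = 0.0526) nor a second one (-0.32) passed. The CDK inhibitor gene Cdkn2d rose by 0.74 ± 0.12, E2f1, the transcription factor held by Rb, by 0.46 ± 0.10, and Cdk6, a partner of D cyclins, was at least 1.43-fold higher (adjusted p = 0.00123). Imprinted Cdkn1c, the inhibitor p57, was at least 1.43-fold lower (adjusted p = 0.000131).

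Interferon-induced genes had the largest share of falls among the 34 lists. They are normally switched on by interferon through transcription factors that bind a short element called ISRE in their promoters, and they defend the cell against viruses and present antigen. Of 49 tested, 47 fell and 1 rose (98% called), with a median of -2.40 (or -2.0 where 15 of them enter at their bound). Among sensors and regulators Irf9 was at 7.81 and 7.73 on the YYFF L4 arrays, against 10.68 and 10.78 on the YYFF L0 arrays (change -2.96 ± 0.11, adjusted p = 2.01e-07), and Ddx58, the RNA sensor RIG-I, at 6.31 and 6.16 in YYFF L4, against 8.89 and 8.67 in YYFF L0. Stat2 fell by 1.41 ± 0.26 and Irf1 by 0.87 ± 0.10, and Zbp1 was the 1 member that did not pass (0.23 ± 0.30). All 7 tested GTPases fell, from Irgm1 (-0.69 ± 0.19) to Igtp, at 5.68 and 5.48 in YYFF L4, against 10.02 and 9.87 in YYFF L0 with 1 of 2 L4 arrays above background (change -4.36 ± 0.15). All 13 tested genes of MHC class I and antigen processing fell. B2m, the light chain of MHC class I, was at 12.54 and 12.78 on the YYFF L4 arrays, against 14.14 and 14.23 on the YYFF L0 arrays, a change of -1.53 ± 0.12, the peptide transporter subunit Tap2, above background on 1 of 2 L4 arrays, fell by 3.41 ± 0.15 and its partner Tapbp by 2.02 ± 0.20. The proteasome activator genes Psme1 (-1.02 ± 0.11) and Psme2 (-0.74 ± 0.12) fell less. Parp14 (at least 8.4-fold lower, adjusted p = 2.71e-07), the oligoadenylate synthetase gene Oas2 (at least 7.4-fold lower, adjusted p = 2.22e-07) and the immunoproteasome subunit gene Psmb9 (at least 6.64-fold lower, adjusted p = 3.57e-07) were below background on both L4 arrays. The exception was Ifit2, a protein that binds viral RNA, at 10.23 and 10.19 in YYFF L4, against 9.45 and 9.51 in YYFF L0 (change 0.73 ± 0.10). In WT cells 23 of the 49 fell and 4 rose between L0 and L4, with a median of -0.53. Of all genes 7.99% fell and 7.49% rose in WT cells. For 37 genes the change in YYFF was the more negative (adjusted p = 3.92e-06 for Igtp). Among all genes 13.4% had a more negative change in YYFF than in WT. In the WT clone after 8 passages (WT L8, in no tested contrast) Usp18 was at 5.89 and 5.98 and Irgm2 at 6.13 and 6.06. Gbp3 was at 6.04 and 6.14 there, and Oas1g at 5.93 and 5.98. The WT L0 means of these genes were 12.74, 10.17, 10.87 and 10.75. Ifi27l2a was at 6.64 and 7.12 in WT L8, against 7.26 and 8.15 in WT L0. These interferon genes were picked after their values were seen, and no test was made.

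Promoters are shown for 4 of these genes because the element that interferon factors bind can be read in them. RefSeq promoter windows (build GRCm38.p6, the 250 bases before the start) were matched for 39 of the 49 genes, which gave 46 windows. The ISRE core, GAAA, any 2 bases and GAAA again, searched on both strands and counted where copies overlap, was in 17 of the 46 windows (37%), 1 for each of 17 genes that all fell, against 2.98% of all 32851 windows. Capitals mark the core, whose ends read TTTC where it lies on the other strand.
Igtp (chr11:58199477-58199555, plus strand): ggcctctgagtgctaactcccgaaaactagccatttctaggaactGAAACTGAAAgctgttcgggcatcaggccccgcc
Irgm2 (chr11:58214868-58214967, plus strand): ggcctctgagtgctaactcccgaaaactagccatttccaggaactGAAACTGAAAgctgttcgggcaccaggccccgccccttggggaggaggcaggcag
Trim30a (chr7:104465194-104465274, minus strand): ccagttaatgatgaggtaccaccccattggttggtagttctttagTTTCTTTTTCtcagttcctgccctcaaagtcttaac
Gbp3 (chr3:142559960-142560043, plus strand): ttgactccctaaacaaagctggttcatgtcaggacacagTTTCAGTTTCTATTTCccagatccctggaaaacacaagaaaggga
Igtp, Irgm2 and Gbp3 encode GTPases that act on vacuoles holding pathogens, and Trim30a is a member of the tripartite motif family. The first 79 bases shown for Irgm2 differ from those of its relative Igtp at 2 positions, so these windows share their sequence. Gbp3 holds 2 overlapping copies. Irgm2 was at 6.81 and 6.30 in YYFF L4, against 10.45 and 10.40 in YYFF L0, Gbp3 at 6.25 and 5.80 in YYFF L4, against 9.51 and 9.35 in YYFF L0 and Trim30a at 4.79 and 4.91 in YYFF L4, against 9.07 and 8.98 in YYFF L0, the last at least 10.6-fold lower (adjusted p = 7.04e-08). A match is a description of letters and shows no binding.

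Chemokine and cytokine genes moved both ways, 4 of 15 higher and 6 lower (66.7%). Ccl2, which draws monocytes, was at 8.21 and 8.44 on the YYFF L4 arrays, against 7.11 and 7.19 on the YYFF L0 arrays (change 1.18 ± 0.18), and Ccl7 (1.27 ± 0.19) and the neutrophil chemokine gene Cxcl1 (0.75 ± 0.11) also rose, as they did in WT (1.30 ± 0.18, 1.05 ± 0.19 and 2.24 ± 0.11). Ccl9 was at least 2.21-fold higher (adjusted p = 0.00725). Cxcl12, which holds CXCR4-bearing cells in stroma, was at 8.53 and 8.63 on the YYFF L4 arrays, against 11.67 and 11.78 on the YYFF L0 arrays, a change of -3.15 ± 0.14. Ccl5 was at 5.79 and 6.51 in YYFF L4, against 10.10 and 10.41 in YYFF L0. The membrane-bound chemokine gene Cx3cl1 fell by 2.56 ± 0.22, Csf1, the growth factor of macrophages, by 1.84 ± 0.17, and Ppbp by 0.83 ± 0.12. The change of each of these 5 genes differed from that in WT cells, where Cx3cl1 (0.88 ± 0.22) and Ppbp (1.95 ± 0.12) rose.

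Genes of lipid synthesis rose. Cells make cholesterol and fatty acids under SREBP factors, which Scap carries to the Golgi unless Insig proteins hold them back. All 14 tested enzymes of sterol synthesis rose (100%, median 1.59), where 14.4% of all genes did. Along the pathway Hmgcs1, which makes the precursor of mevalonate, was at 14.37 and 14.05 on the YYFF L4 arrays, against 12.92 and 12.78 on the YYFF L0 arrays (change 1.36 ± 0.14), and Mvd, the last step to isopentenyl diphosphate, at 9.66 and 9.68 in YYFF L4, against 7.40 and 7.29 in YYFF L0 (2.33 ± 0.17). Squalene epoxidase, Sqle, was at 12.95 and 12.92 in YYFF L4, against 11.08 and 10.92 in YYFF L0 (1.93 ± 0.12). All 3 lie clear of the L0 arrays. Fdps rose by 1.87 ± 0.20, Lss, the lanosterol synthase, by 2.16 ± 0.18, Cyp51 by 1.96 ± 0.20 and Dhcr7, the last step to cholesterol, by 1.24 ± 0.22. Sc5d made the smallest rise, 0.58 ± 0.16. Of the regulators, Insig1 was at 10.44 and 10.19 in YYFF L4, against 7.42 and 7.54 in YYFF L0 and Insig2 rose by 1.56 ± 0.11, Srebf2, the factor for sterol genes, rose by 1.30 ± 0.15, and Srebf1 (0.29 ± 0.32, on 1 of 2 L4 arrays above background) and Scap (-0.44 ± 0.17) did not pass. The sterol carrier gene Stard4 rose by 1.10 ± 0.10. In WT cells 2 of the 14 synthesis genes rose between L0 and L4 (median 0.14), beside 7.49% of all genes. For 11 of the 14 the change in YYFF was the higher, against 10.3% of all genes. On the WT L8 arrays, without a test, Insig1 was at 9.69 and 9.40, against 7.03 and 6.87 in WT L0. In the window of Hmgcs1, shown because its promoter is a classical target of SREBP, the letters TCACNCCAC (capitals) were found. They were in 1 of 39 windows of 29 matched genes of the sterol and fatty acid lists (2.56%) and in 1.05% of all windows.
Hmgcs1 (chr13:119690169-119690267, plus strand): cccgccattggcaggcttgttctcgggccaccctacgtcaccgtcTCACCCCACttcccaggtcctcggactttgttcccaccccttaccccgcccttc

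Of 13 fatty acid genes 11 rose and 0 fell (84.6%, median 0.85). All 4 desaturases rose. Scd2, which puts the first double bond into saturated fatty acids, was at 10.18 and 10.02 on the YYFF L4 arrays, against 6.67 and 7.43 on the YYFF L0 arrays (change 3.05 ± 0.29), and Scd1 at 11.77 and 11.91 in YYFF L4, against 9.52 and 9.73 in YYFF L0 (2.21 ± 0.14). Fads2 rose by 1.76 ± 0.18 and Fads1 by 0.96 ± 0.12. Carbon supply rose in 4 of 4 cases, with the citrate carrier gene Slc25a1 (0.95 ± 0.12), Acss2 (0.85 ± 0.09), Me1 (0.70 ± 0.20) and Acly (0.64 ± 0.09). Elovl6, which lengthens palmitate, rose by 1.43 ± 0.09 and the committed enzyme gene Acaca by 0.62 ± 0.12. Fasn, the fatty acid synthase, was above background on 1 of the 4 arrays, at 5.78 and 5.58 on the YYFF L4 arrays, against 5.21 and 5.44 on the YYFF L0 arrays, and did not pass (adjusted p = 0.096). In WT cells 2 of the 13 rose and 0 fell between L0 and L4, with a median of 0.00, beside 7.49% of all genes that rose and 7.99% that fell. Scd2 was at 9.53 and 9.61 in WT L8, against 7.31 and 7.83 in WT L0, which was not tested.

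**Figure D2:**
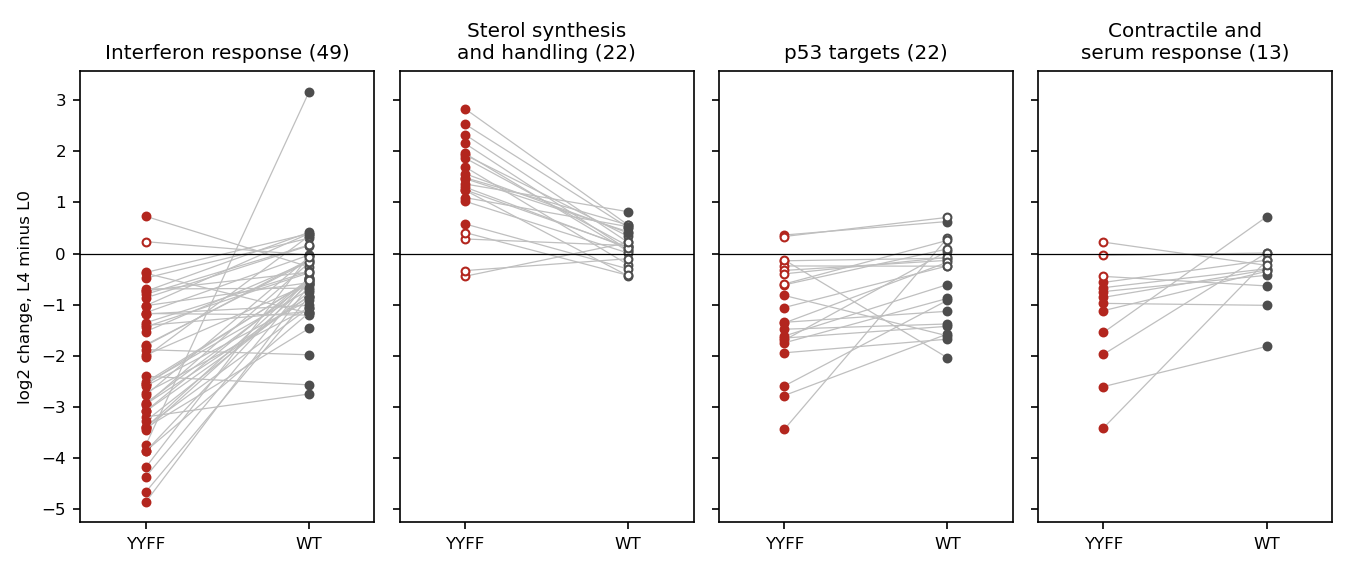
Change from L0 to L4 (log2, L4 minus L0) of each tested member of 4 gene lists in the YYFF clone (left, red) and the WT clone (right, grey), lines joining the same gene. Filled points passed the threshold, and the number of members is in each title. Most interferon genes lie lower and most sterol genes higher in YYFF than in WT, and Ifi27l2a is the interferon gene with the largest rise in WT.

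Genes of the contractile apparatus fell. In fibroblasts they are driven by serum response factor (Srf) and its actin-sensing partners, which bind a site called the CArG box. Of 13 tested, 10 fell and 0 rose (76.9%, median -0.86). Tagln, transgelin, was at 7.37 and 7.54 on the YYFF L4 arrays, against 10.09 and 10.02 on the YYFF L0 arrays (change -2.60 ± 0.13, adjusted p = 8.14e-07). Smooth muscle actin, Acta2, was at 12.54 and 12.58 in YYFF L4, against 14.50 and 14.57 in YYFF L0 on its brightest probe (-1.97 ± 0.12), and its other 3 detected probes fell by 3.61, 4.33 and 4.56. Lmod1, which nucleates actin in smooth muscle, was at least 6.68-fold lower (adjusted p = 2.01e-07). Tropomyosins Tpm1 (-0.74 ± 0.12) and Tpm2 (-0.97 ± 0.16, with 0.16 on a second probe that did not pass), smoothelin, Smtn (-0.67 ± 0.10), and calponin 2, Cnn2 (-0.56 ± 0.17), fell by less than 2-fold, while the cytoplasmic actin Actb, at 14.64 and 14.60 in YYFF L4, against 14.69 and 14.62 in YYFF L0, did not pass. Srf itself fell by 1.12 ± 0.13, with -0.57 on a second probe that did not pass. Before laminin 8 of the 13 lay above the WT L0 level in YYFF L0 and 0 below it, with YYFF L0 arrays in both comparisons. Of all genes 14.7% were higher there and 12.2% lower. In WT cells 4 of the 13 fell and 1 rose between L0 and L4, where 7.99% of all genes fell and 7.49% rose.

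Among 18 immediate early and YAP target genes, 8 fell and 2 rose (55.6%). Egr1, an early factor of growth signals, was at 10.88 and 10.91 on the YYFF L4 arrays, against 13.49 and 13.54 on the YYFF L0 arrays (change -2.62 ± 0.12), and Fos, a part of the AP-1 factor, at 5.96 and 5.76 in YYFF L4, against 8.49 and 7.90 in YYFF L0 (-2.33 ± 0.19). Egr2 fell by 2.21 ± 0.18 and Junb by 1.24 ± 0.14, but Klf4 rose by 1.52 ± 0.23 and Ier3 by 0.64 ± 0.15. Of the YAP targets Ankrd1 (-1.67 ± 0.18), Ccn1 (-1.16 ± 0.16), Amotl2 (-0.78 ± 0.20) and Ccn2 (-0.60 ± 0.09) fell, and Ccn2 fell further in WT (-1.91 ± 0.09). Promoter windows of Srf, Vcl (vinculin) and Egr2 are shown because they hold the CArG box, searched on both strands. It was in 3 of 13 windows of 10 matched contractile genes (23.1%), namely Srf, Vcl and Cnn2. Of 17 windows of 13 matched immediate early and YAP genes 4 held it (23.5%). All 4 are alternative windows of Egr2, some of which overlap and share a site, so the box was found in 1 of the 13 genes. Of all windows 1.47% held it. Capitals mark the box.
Srf (chr17:46556170-46556269, minus strand): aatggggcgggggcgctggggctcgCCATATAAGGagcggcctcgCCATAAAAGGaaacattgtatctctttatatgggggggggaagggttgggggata
Vcl (chr14:20929148-20929225, plus strand): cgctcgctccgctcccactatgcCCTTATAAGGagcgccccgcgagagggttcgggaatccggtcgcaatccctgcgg
Egr2 (chr10:67537449-67537548, plus strand): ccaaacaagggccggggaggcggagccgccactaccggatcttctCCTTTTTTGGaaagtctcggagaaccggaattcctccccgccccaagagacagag
Srf holds 2 boxes in this stretch. Vcl, which links integrin adhesions to actin, was at 12.26 and 12.42 in YYFF L4, against 13.18 and 13.22 in YYFF L0, and Egr2 at 6.25 and 6.02 in YYFF L4, against 8.38 and 8.30 in YYFF L0.

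Feedback genes of the MAP kinase pathway split, with 4 of 15 higher and 4 lower (53.3%), and with 4 calls in all without YYFF L4 replicate 2 or without YYFF L0 replicate 1. Dusp1, a nuclear phosphatase induced by stress, was at 13.26 and 13.22 on the YYFF L4 arrays, against 11.38 and 11.36 on the YYFF L0 arrays (change 1.87 ± 0.10). Dusp6, which acts on ERK in the cytoplasm, was at 8.16 and 8.38 in YYFF L4, against 10.23 and 10.22 in YYFF L0, in the opposite direction (-1.96 ± 0.10). Dusp14 rose by 0.48 ± 0.14, and the ERK inhibitor gene Spred1 fell by 0.39 ± 0.10. In WT cells Dusp1 fell (-1.39 ± 0.10), so the clones moved apart (3.26 ± 0.14, adjusted p = 8.85e-07).

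Adhesion genes moved both ways. Of 12 tested integrin subunits, 3 rose and 3 fell (50%, median -0.01). Itgb7, a β subunit known from lymphocytes, was at 9.69 and 9.48 on the YYFF L4 arrays, against 6.12 and 5.95 on the YYFF L0 arrays (change 3.55 ± 0.22). It also rose in WT cells (adjusted p = 0.000205), where it was below background on both L0 arrays. Itga7, a laminin-binding α subunit of muscle, was at 8.11 and 8.03 in YYFF L4, against 4.72 and 4.83 in YYFF L0, at least 6.22-fold higher (adjusted p = 7.91e-07), and it was below background on all 4 of these WT arrays, at 4.84 and 4.72 in WT L4, against 5.03 and 4.90 in WT L0. The other laminin-binding subunits, Itga3 (0.02 ± 0.16) and Itga6 (-0.03 ± 0.27), did not pass. Itgb3, the β3 subunit that can hold cells without β1, was at least 1.39-fold higher (adjusted p = 0.0134). The collagen receptor subunits Itga11 (at least 5.8-fold lower, adjusted p = 1.29e-06) and Itga1 (at least 1.56-fold lower, adjusted p = 0.0017) fell, as did Itgb4, of hemidesmosomes (at least 3.5-fold lower, adjusted p = 3.7e-05). Of 17 focal adhesion adaptors 7 fell and 4 rose (64.7%), with 4 calls in all under median scaling. Lims2, part of the complex of Ilk, was at 7.29 and 7.30 on the YYFF L4 arrays, against 10.19 and 10.11 on the YYFF L0 arrays (change -2.85 ± 0.11), kindlin 2, Fermt2, fell by 1.13 ± 0.12, Ilk by 0.75 ± 0.13, and the actin crosslinkers Actn4 by 0.88 ± 0.16 and Actn1 by 0.50 ± 0.11. Paxillin, Pxn, rose by 1.19 ± 0.22 and the kinase gene Src by 0.60 ± 0.13, and the related kinase gene Fyn was at least 2.43-fold higher (adjusted p = 0.00159). Second probes of Pxn (0.72) and Src (0.49) did not pass. Talin, Tln1, which opens integrins, was above background on 1 of the 4 arrays.

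Of 13 basement membrane genes 4 rose and 4 fell (61.5%). The laminin chains Lamc1 (0.57 ± 0.13) and Lamb3 (0.68 ± 0.19) rose, as both did in WT (adjusted p = 0.0146 and adjusted p = 0.0127). Collagen IV genes Col4a1, at 11.80 and 11.74 on the YYFF L4 arrays, against 10.88 and 10.90 on the YYFF L0 arrays, and Col4a2 (0.98 ± 0.13) rose, and Col4a5 (-1.80 ± 0.18), the linker Nid2 (-2.45 ± 0.13) and the heparan sulfate proteoglycan agrin, Agrn (-2.51 ± 0.11), fell. Interstitial matrix genes fell in 12 of 28 cases and rose in 4 (57.1%, median -0.42). Col1a1, the main collagen of fibroblasts, was at 10.68 and 10.64 on the YYFF L4 arrays, against 11.42 and 11.48 on the YYFF L0 arrays (change -0.79 ± 0.15), the collagen VI chains Col6a1 (-1.0 ± 0.14) and Col6a2 (-1.25 ± 0.27) fell while rising in WT (1.09 ± 0.14 and 0.97 ± 0.27), and thrombospondin 1, Thbs1, was at 8.18 and 7.75 in YYFF L4, against 10.41 and 10.20 in YYFF L0. Thrombospondin 2, Thbs2, went the other way, at least 5.03-fold higher (adjusted p = 0.000355). Fibulin 1, Fbln1, rose by 1.75 ± 0.16, and tenascin C, Tnc, fell by 1.04 ± 0.20. Osteoglycin, Ogn, was at 9.36 and 9.32 in YYFF L4, against 12.50 and 12.63 in YYFF L0. In WT cells it moved the opposite way, at 11.30 and 11.32 in WT L4, against 8.79 and 8.97 in WT L0. Decorin rose in both clones (3.03 ± 0.10 in YYFF and 3.56 ± 0.10 in WT).

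Of 19 matrix proteases and inhibitors 8 fell and 3 rose (57.9%). The aggrecanase genes Adamts1 (2.09 ± 0.40, on 1 of 2 L0 arrays above background) and Adamts5 (2.0 ± 0.18) rose, and so did Plau, urokinase (0.61 ± 0.15). Collagenase 3, Mmp13, was at least 5.58-fold lower (adjusted p = 5.59e-06) in YYFF and rose in WT (2.98 ± 0.19), while its other 2 detected probes did not pass in YYFF (-0.03 and -0.35). Stromelysin 1, Mmp3, also fell in YYFF (adjusted p = 0.0059), to below background on both L4 arrays, and rose in WT (1.53 ± 0.16). Timp3, an inhibitor of metalloproteinases, did likewise (-0.35 ± 0.10 in YYFF and 1.06 ± 0.10 in WT), with -0.04 on a second probe that did not pass in YYFF. Of 19 hyaluronan and heparan sulfate genes 9 fell and 4 rose (68.4%). The hyaluronan receptor Cd44 was at 12.44 and 12.44 on the YYFF L4 arrays, against 11.15 and 11.21 on the YYFF L0 arrays (change 1.26 ± 0.10), beside the rise of the synthase Has1 above. Has2 did not pass (-0.32 ± 0.15), and the hyaluronidase gene Hyal2 fell (-0.56 ± 0.11). Syndecans went both ways: Sdc1 rose by 0.89 ± 0.24, and Sdc3 (-2.12 ± 0.12), Sdc2 (-0.67 ± 0.13) and Sdc4 (-0.49 ± 0.13) fell.

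**Figure D3:**
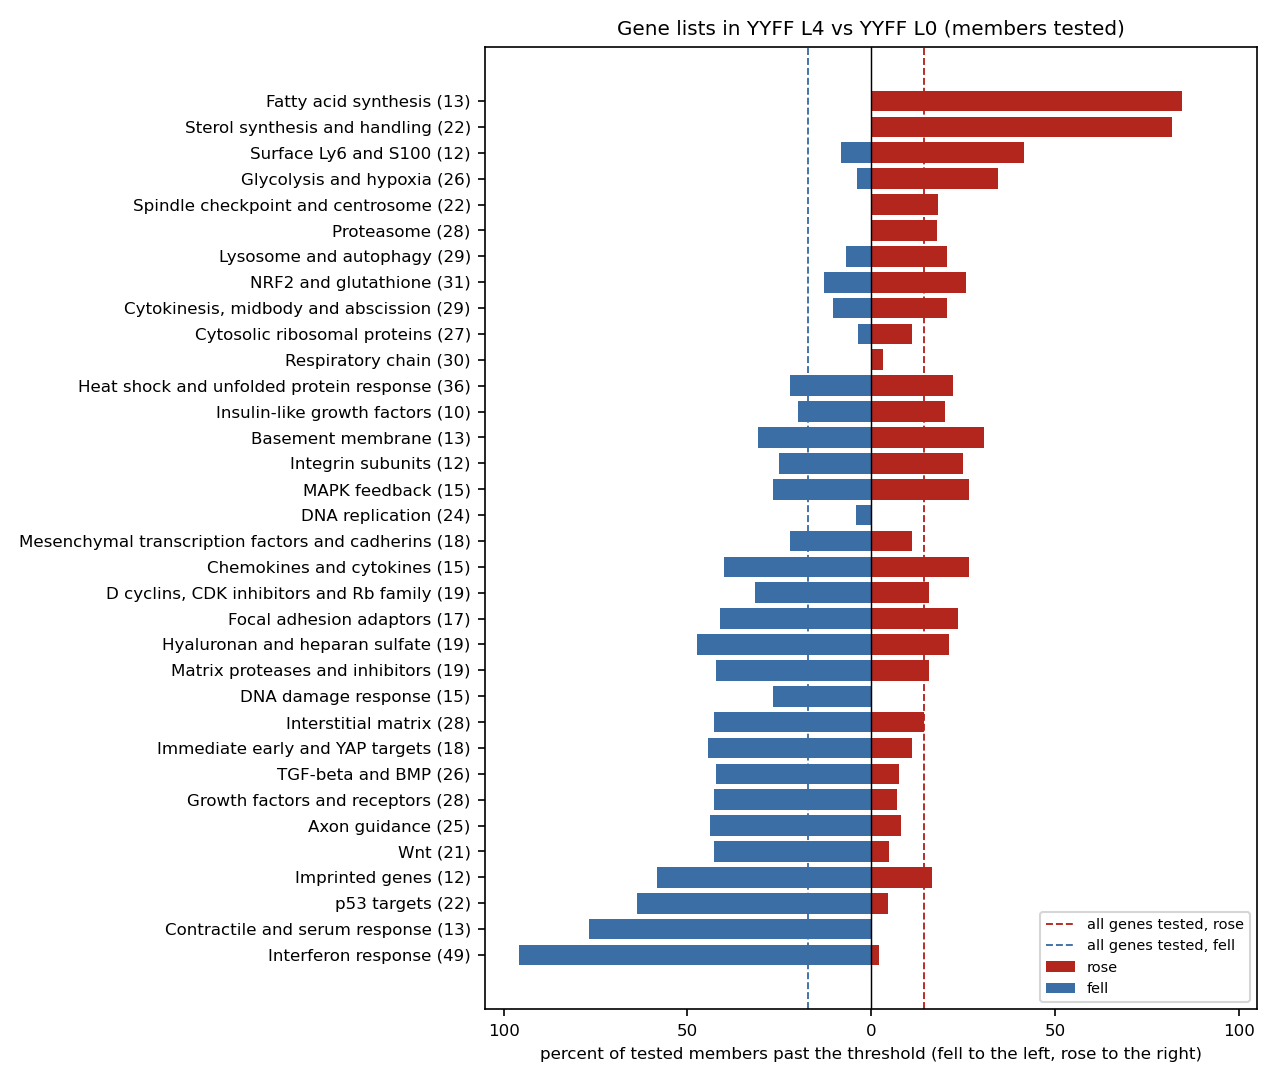
Percent of the tested members of each of the 34 gene lists that rose (red, right) or fell (blue, left) in YYFF L4 vs YYFF L0, with the number tested in brackets, and dashed lines at the share of all genes that rose (14.4%) or fell (17.2%). Fatty acid and sterol lists stand at the top, and interferon, contractile and p53 lists at the bottom.

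Genes of secreted signals and their receptors fell more often than they rose. Of 28 growth factors and receptors 12 fell and 2 rose (50%, median -0.32). Pdgfra, a receptor for platelet-derived growth factor that also marks fibroblasts, was at 5.90 and 5.56 on the YYFF L4 arrays, against 9.51 and 9.21 on the YYFF L0 arrays, with 1 of 2 L4 arrays above background (change -3.63 ± 0.22, adjusted p = 3.27e-06). Egfr was at 8.10 and 7.96 in YYFF L4, against 10.15 and 10.06 in YYFF L0 (-2.07 ± 0.12), and Fgfr2 was at least 3.33-fold lower (adjusted p = 4.93e-05), with -0.33 on a second probe that did not pass. In WT cells neither Pdgfra (0.40 ± 0.22) nor Egfr (0.21 ± 0.12) passed. Pdgfrb, at 7.47 and 7.10 in YYFF L4, against 7.50 and 7.50 in YYFF L0, did not pass, and the ligand gene Pdgfc rose by 1.97 ± 0.17. Vegfc, which drives lymphatic vessels, was at least 4.82-fold lower (adjusted p = 3.85e-07), the ErbB receptor ligand genes Hbegf (-1.08 ± 0.13) and Nrg1 (-0.86 ± 0.21) fell, and Gdnf, a neurotrophic factor, rose by 0.54 ± 0.13. Igf2, the fetal growth factor, was at least 19-fold lower (adjusted p = 3.77e-08) and fell in WT too (-3.22 ± 0.12, with 1 of 2 WT L4 arrays above background). Its binding protein gene Igfbp7 rose by 1.53 ± 0.18, and Igf2r, which clears Igf2, by 0.55 ± 0.13.

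Of 21 Wnt pathway genes 9 fell and 1 rose (47.6%, median -0.51, or -0.14 with 5 genes at their bound). With a stricter filter on dim probes 8 of them were tested, of which 5 fell and 1 rose. The R-spondins, which strengthen Wnt signals, were sharply lower: Rspo3 was at 5.52 and 5.82 on the YYFF L4 arrays, against 10.46 and 10.37 on the YYFF L0 arrays, above background on 1 of 2 L4 arrays (change -4.74 ± 0.16), and Rspo2 at 6.52 and 6.10 in YYFF L4, against 9.58 and 9.72 in YYFF L0 (-3.34 ± 0.20). In WT cells both rose (3.09 ± 0.16 and 2.75 ± 0.20). Wnt5a was at least 9.85-fold lower (adjusted p = 3.77e-08) and the antagonist gene Sfrp2 at least 10.3-fold lower (adjusted p = 6.18e-06). Wnt5b fell to below background on both L4 arrays (adjusted p = 0.00166), and the receptor gene Fzd7 rose by 0.89 ± 0.15. Of 26 TGF-β and BMP genes 11 fell and 2 rose (50%, median -0.48, or -0.36 with 3 genes at their bound). Follistatin, Fst, a trap for activins, was at 8.96 and 8.77 on the YYFF L4 arrays, against 11.10 and 10.98 on the YYFF L0 arrays (change -2.18 ± 0.18). The BMP antagonist Grem1 was at least 3.2-fold lower (adjusted p = 1.11e-05). Tgfb2 fell by 1.05 ± 0.17 and rose in WT (1.31 ± 0.17), and the BMP target genes Id1 (-0.98 ± 0.10), Id3 (-0.78 ± 0.18) and Smad6 (-1.18 ± 0.11) fell. Fstl1 rose by 0.92 ± 0.12 and the co-receptor gene Tgfbr3 by 0.86 ± 0.11.

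Guidance genes fell in 11 of 25 cases and rose in 2 (52%, median -0.48). Unc5c, a receptor by which netrin repels, was at 6.54 and 6.05 on the YYFF L4 arrays, against 10.44 and 10.51 on the YYFF L0 arrays, and Unc5b fell by 1.79 ± 0.14. The repellent Sema3a was at 8.07 and 8.28 in YYFF L4, against 10.46 and 10.46 in YYFF L0 (-2.29 ± 0.11), its receptor gene Nrp1 fell by 1.02 ± 0.10, Slit2 by 1.51 ± 0.13, Robo1, the receptor of Slit proteins, by 1.28 ± 0.15, and Efnb1 by 2.33 ± 0.16. Against this trend the netrin gene Ntn4 rose by 1.25 ± 0.19, as did Plxna2. Of 12 imprinted genes 7 fell and 2 rose (75%). Among paternally expressed genes Dlk1 was at least 15.6-fold lower (adjusted p = 1.42e-08), Mest at least 6.34-fold lower (adjusted p = 9.05e-06) and Snrpn at least 5.62-fold lower (adjusted p = 5e-07), though a second probe of Snrpn did not pass (-0.27). Of 18 mesenchymal factors and cadherins 4 fell and 2 rose (33.3%, near the 31.5% of all genes), with Twist2 at 13.19 and 13.21 on the YYFF L4 arrays, against 10.95 and 10.79 on the YYFF L0 arrays (change 2.33 ± 0.10), Snai1 lower (-1.35 ± 0.28, with -0.09 on a second probe that did not pass) and N-cadherin, Cdh2, not past (0.40 ± 0.30).

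Stress and energy genes moved both ways. Of 31 NRF2 and glutathione genes 8 rose and 4 fell (38.7%, near the 31.5% of all genes). Gsta2 was at least 3.84-fold higher (adjusted p = 2.61e-06), Gstp1, at 12.98 and 13.03 on the YYFF L4 arrays, against 12.03 and 11.92 on the YYFF L0 arrays, and Mgst3 (1.20 ± 0.23) rose, with the NRF2 targets Srxn1 (1.18 ± 0.10), Nqo1 (0.84 ± 0.13) and Gclm (0.72 ± 0.12). Heme oxygenase, Hmox1, fell by 1.49 ± 0.13 and the cystine carrier Slc7a11 by 1.25 ± 0.21. Of 26 glycolysis and hypoxia genes 9 rose and 1 fell (38.5%, also near that share). They had 6 calls in all under median scaling (4 higher and 2 lower) or without YYFF L4 replicate 2 or YYFF L0 replicate 2. Ndrg1, a hypoxia-induced gene, was at 10.43 and 10.43 on the YYFF L4 arrays, against 8.47 and 8.50 on the YYFF L0 arrays. The enzyme gene Pgam1 rose by 1.35 ± 0.13, and Ddit4, an inhibitor of mTOR, fell by 1.07 ± 0.11. Chaperones and stress response genes split 8 against 8 of 36 (44.4%), with 10 calls in all without YYFF L4 replicate 2 or YYFF L0 replicate 1. The small heat shock protein gene Hspb1 was at 11.53 and 11.84 on the YYFF L4 arrays, against 8.90 and 9.51 on the YYFF L0 arrays (change 2.48 ± 0.51) and Hspb8 rose by 1.29 ± 0.23. Genes of the integrated stress response leaned the other way, 5 of 11 lower and 2 higher, with Ddit3, known as CHOP (-1.21 ± 0.27), and Trib3 (-1.28 ± 0.19) lower and the factor Atf4 not past (-0.04 ± 0.16).

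Housekeeping machinery lay near or under the background of 31.5%. Of 28 proteasome subunits 5 rose and 0 fell (17.9%, median 0.16), among them Psma7 (0.58 ± 0.15) and Psmd11 (0.57 ± 0.15), with 1 to 2 calls when any 1 array is left out, 2 under median scaling, 3 with the mean of all detected probes and 8 with the title numbers as a block. Of 29 lysosome and autophagy genes 6 rose and 2 fell (27.6%), with the sialidase gene Neu1 (0.92 ± 0.10) and Atg7 (0.80 ± 0.24, on 1 of 2 L0 arrays above background) higher and the collagen-degrading cathepsin K, Ctsk, at least 4.35-fold lower (adjusted p = 0.00245). The count of 8 calls is 3 to 4 when any 1 array is left out, 4 under median scaling and 5 with a stricter filter on dim probes. Of 30 respiratory chain genes 1 passed (3.33%), Ndufb8 (0.45 ± 0.09), with 0 calls without YYFF L4 replicate 2 and 2 with the title numbers as a block or the compared arrays alone. Of 27 ribosomal protein genes 3 rose and 1 fell (14.8%), with 2 calls in all without YYFF L4 replicate 2 or YYFF L0 replicate 1, and the fall was that of Rpl22, at 9.66 and 9.59 on the YYFF L4 arrays, against 10.74 and 10.86 on the YYFF L0 arrays (change -1.17 ± 0.09). Among 12 Ly6 and S100 genes 5 rose and 1 fell (50%), with S100a1 at 9.35 and 9.24 on the YYFF L4 arrays, against 7.21 and 7.12 on the YYFF L0 arrays and S100a13 higher by 1.32 ± 0.20.

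The WT clone was passaged the same way. In WT L4 vs WT L0, with no array shared, 1376 genes changed (15.5%), 666 higher (7.49%) and 710 lower (7.99%), and 743 genes changed in both clones, which is 26.5% of the YYFF list and 54% of the WT list. The WT count was 683 with median scaling and 490 with the 4 compared arrays alone in the fit. It was 740 or 843 when the first or second WT L0 replicate was left out, and 851 when it was the second of WT L4. Of the 743 genes 446 went the same way and 297 opposite ways. The clones' changes themselves differed for 2109 genes (23.7%), 918 higher and 1191 lower in YYFF. Median scaling gave 1295 such genes. Among the 2109 were 1633 of the 2803 genes that changed in YYFF, and the same YYFF arrays enter both counts. Scara3, a scavenger receptor, was at 11.69 and 11.53 in YYFF L4, against 9.37 and 9.47 in YYFF L0 and at 7.64 and 7.71 in WT L4, against 10.34 and 10.61 in WT L0 (difference 5.0 ± 0.16, adjusted p = 3.24e-07). Klf2, a factor of the Krüppel family, was at 10.76 and 10.86 in YYFF L4, against 8.32 and 8.34 in YYFF L0 and at 7.26 and 7.05 in WT L4, against 8.57 and 8.79 in WT L0 (4.0 ± 0.17). In both genes YYFF rose and WT fell, and the kinesin adaptor Fez1 did the same (1.62 ± 0.15 in YYFF, -2.71 ± 0.15 in WT). Ckb belonged to this class too, with a change of -1.76 ± 0.09 in WT. Ifi27l2a, an interferon-induced mitochondrial protein, was at 8.46 and 8.82 in YYFF L4, against 12.31 and 12.46 in YYFF L0 and at 10.71 and 11.03 in WT L4, against 7.26 and 8.15 in WT L0 (difference -6.91 ± 0.41). Here YYFF fell and WT rose, as with the Notch target Hey1 (-3.01 ± 0.15 and 1.58 ± 0.15), the microtubule regulator Stmn2 (-1.93 ± 0.15 and 2.61 ± 0.15), Ccdc3 (-2.66 ± 0.21 and 1.65 ± 0.21), Ptn and Rcan2. The changes of Plxna2, Ly6c1, Ccdc68 and Renbp in YYFF exceeded those in WT by 4.49 ± 0.25, 4.13 ± 0.18, 3.42 ± 0.20 and 3.30 ± 0.81. The WT L0 arrays of Renbp lay far apart, at 5.86 and 8.15. Fxyd6 fell below background in both clones, at 4.67 and 4.59 in WT L4, against 10.15 and 10.08 in WT L0.

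The starting point of the clones also differed. In YYFF L0 vs WT L0, 2397 genes differed (27%), 1311 higher (14.7%) and 1086 lower (12.2%). With arrays scaled to their medians there were 1418, and there were 1505 or 1526 when the first or second YYFF L0 array was left out, and 1554 when it was the first of WT L0. Several genes that fell after 4 passages had been higher in YYFF before them: Ifi27l2a by 4.68 ± 0.29 and Apod by 4.61 ± 0.19, while Cd59a (adjusted p = 4.68e-08), Gas6 (adjusted p = 3.8e-08) and Ednrb (adjusted p = 1.43e-07) were below background on both WT L0 arrays. Eps8 (-1.91 ± 0.19) and Ccdc68 (-1.75 ± 0.14), which rose after 4 passages, had been lower. The YYFF L0 arrays enter both comparisons. Oasl2 had been slightly lower (-0.40 ± 0.13), and Usp18 did not differ past the threshold (-0.24 ± 0.11).

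Fewer genes passed in the next step. Between YYFF L8 and YYFF L4, which shares the L4 arrays, 128 genes changed (1.44%), 36 higher (0.405%) and 92 lower (1.03%), against 2803 in the step before. The count was 0 with those 4 arrays alone in the fit (1082 genes at an unadjusted p under 0.05), 35 or 45 when the first or the second YYFF L4 replicate was left out, and 213 when it was the second of YYFF L8. Gsta2 went on rising, at 9.50 and 9.54 in YYFF L8, against 7.28 and 7.47 in YYFF L4 (2.15 ± 0.12), with Gsta1 (1.69 ± 0.30), the growth cone gene Gap43 (1.55 ± 0.22), Elmod1 (1.47 ± 0.19), the lipid kinase gene Pip5k1b (1.39 ± 0.11) and Rhox5 (1.13 ± 0.14). Cxcl12 went on falling, at 6.47 and 6.83 in YYFF L8, against 8.53 and 8.63 in YYFF L4 (-1.93 ± 0.14), as did Tagln (-1.29 ± 0.13), Ppbp (-1.74 ± 0.12), the cytokine signal inhibitor Cish (-1.84 ± 0.13) and Actg2 (-1.26 ± 0.20). Turns were made by Serping1, the C1 inhibitor, above background on 1 of 2 L0 arrays, 2.71 ± 0.36 in L4 vs L0 and -2.16 ± 0.36 in L8 vs L4, and by Smoc1 (-0.90 ± 0.17 and 1.44 ± 0.17). Cdo1, which oxidizes cysteine, and Eno2, an enolase, fell in the later step (-2.0 ± 0.19 and -1.28 ± 0.17), and Arhgap22 rose in it (1.24 ± 0.25), with changes of -0.12 ± 0.19, -0.22 ± 0.17 and 0.56 ± 0.25 in the first step that did not pass. The difference between the steps was not tested.

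**Figure D4:**
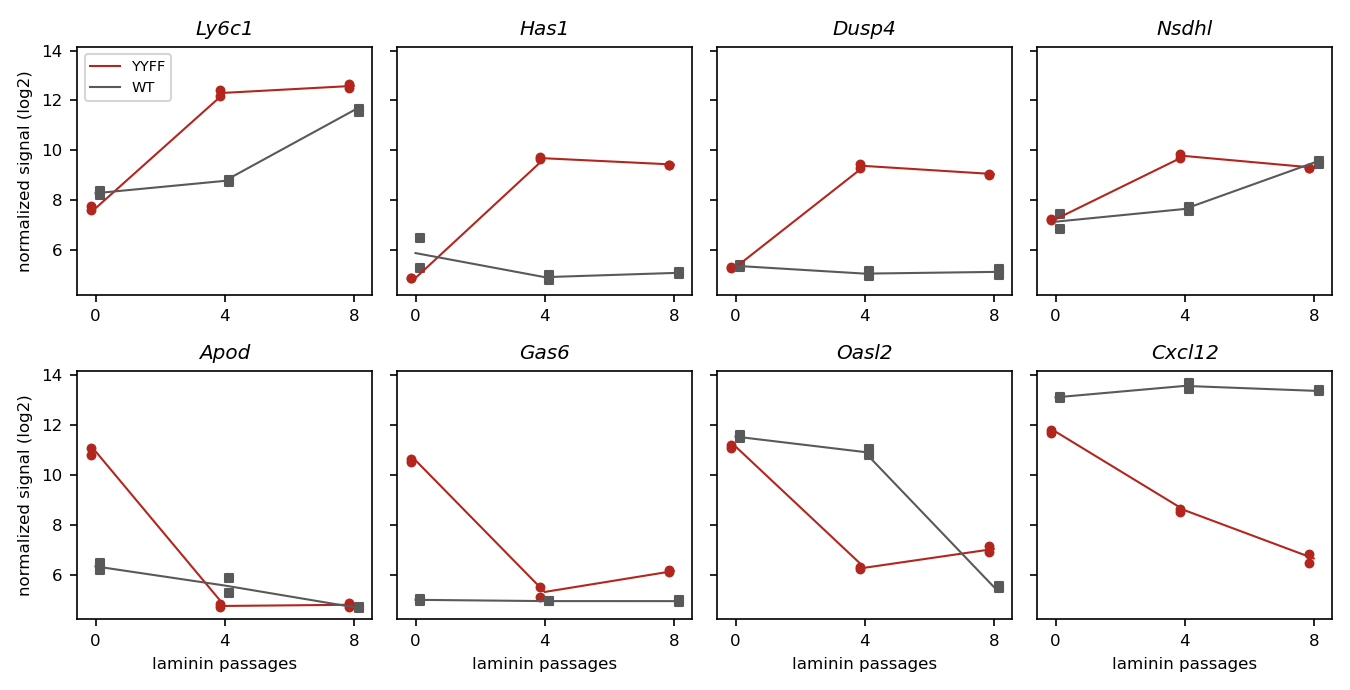
Normalized log2 signal of 8 genes after 0, 4 and 8 laminin passages in the YYFF clone (red circles) and the WT clone (grey squares), each point 1 array and lines through the means of 2 arrays, genes picked after their values were seen. In YYFF most of the move lies between 0 and 4 passages, Cxcl12 goes on falling to 8, and Ly6c1, Nsdhl and Oasl2 in WT move mainly between 4 and 8.

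The genes of some chromosomes moved together by small amounts. On chromosome 15, 95 of 381 tested genes rose (24.9%) and 38 fell (9.97%), with a median change of 0.23, and the medians of the YYFF L4 arrays, each against the YYFF L0 mean, were 0.19 and 0.23. On chromosome 19, 97 of 326 rose (29.8%) and 43 fell (13.2%), with a median of 0.15 and array values of 0.16 and 0.17. Both stand beside 14.4% of all genes that rose. On chromosome 7, 187 of 679 genes fell (27.5%) and 40 rose (5.89%), median -0.16, and on chromosome 14, 79 of 296 fell (26.7%) and 25 rose (8.45%), median -0.18, beside 17.2% of all genes that fell. The other 16 chromosomes had medians from -0.08 to 0.10. In WT cells the medians were 0.14 on chromosome 15, 0.11 on chromosome 19, -0.05 on chromosome 7 and -0.07 on chromosome 14, and the most negative was that of chromosome 12, -0.17. These 4 chromosomes were chosen after their values were seen and were given no test. The medians shrink to 0.06, 0.04, -0.02 and -0.02 on chromosomes 15, 19, 7 and 14 when probes at background are kept. RNA was measured, not the number of chromosomes.

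**Figure D5:**
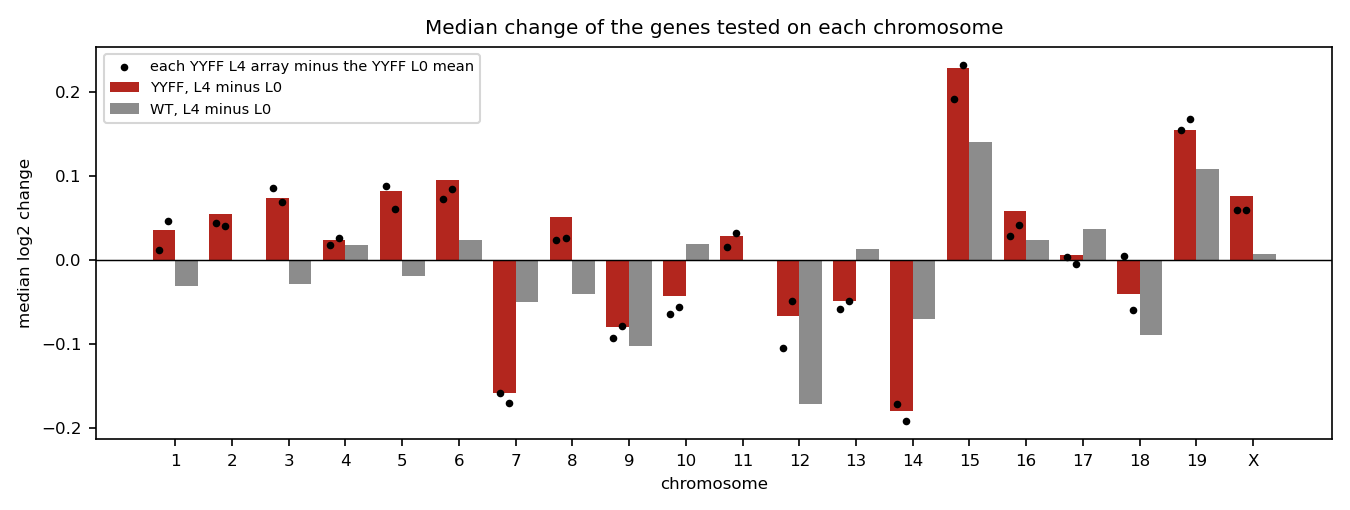
Median log2 change (L4 minus L0) of the tested genes of each chromosome in the YYFF clone (red bars) and the WT clone (grey bars), with black points for each YYFF L4 array against the mean of the YYFF L0 arrays. Chromosomes 15 and 19 stand highest and 14 and 7 lowest in YYFF.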

How the data were processed

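RNA was measured on Illumina bead arrays with 25697 probes, from 100 ng of total RNA per array per the labels. The deposited table holds, per the file headers, each probe's intensity on each array with its detection p-value, and these signals were not normalized. A further deposited table holds the authors' processed intensity values, which served as an alternative here. In it the values of WT L0 replicate 2 equal the non-normalized signal for 100% of probes. Their median is 87.01, against 80.24 on the other arrays, so this alternative holds an array that was not normalized. The submitters' processing notes name limma with no version. Intensities were background corrected with normexp through the detection p-values, with an offset of 16, quantile normalized over the 12 arrays and put on the log2 scale (R 4.3.3, limma 3.58.1). Probes with a detection p under 0.05 on at least 2 of 12 arrays were kept (12974), and the brightest probe stood for each of 8891 genes. Names came from the platform annotation, updated through gene identifiers for 23962 probes.

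One limma model with 6 groups of 2 arrays gave all comparisons, with Benjamini-Hochberg adjustment at 0.05; it had 6 residual degrees of freedom and 2.91 prior ones. An exact permutation test of 2 against 2 arrays cannot go below p = 0.333, so none was used. A gene above background on both arrays of 1 group and on neither of the other has only a lower bound. It sets the mean of the bright group against, per array, the higher of 2 values. These are the dim probe and the lowest signal on that array with a detection p under 0.05. Members and gene lists were chosen with earlier results of these data known. Named were Itgb1; the 15 largest changes each way among genes above background on all 4 arrays and past the threshold with any 1 array left out; the 6 largest each way above background in 1 group only; members of the 34 lists, largest changes first; and the 8 largest each way for the clone difference and for YYFF L8 vs YYFF L4, without predicted genes. Of 980 listed genes 727 were tested. Alternatives changed the scaling, filter, offset, probe rule, replicate block and arrays used, and left out each array in turn. Replicate numbers in the titles were not taken to pair the arrays in the main fit. Deviations of same-numbered arrays correlated positively in all 15 pairs of groups.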

Additional observations from a re-analysis of the deposited data

Results flagged for a closer look

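The changes after 4 laminin passages differed between the clones for 2109 of 8891 genes (23.7%), by the limma interaction term with Benjamini-Hochberg adjustment. Of the 293 genes named here 216 were among them, 100 higher and 116 lower in YYFF than in WT. Many genes were named for large changes in YYFF or large differences between the clones, so a high share follows from the choice. Leaving Itgb1 aside, the difference (YYFF minus WT, log2) passed for 42 of the 46 genes whose change is given for both clones above. Explanations were not tested.

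Among matrix and adhesion genes the difference was 3.48 for Itga7, 1.28 for Itgb7, -5.65 for Ogn, -0.53 for Dcn, -2.09 for Col6a1 and -2.22 for Col6a2. It was -5.83 for Mmp13, -2.31 for Mmp3 and -1.41 for Timp3. Some of these rest on a group below background (Itga7, Itgb7, Mmp13 and Mmp3), where the fitted value is no measure of size.

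Among signals and receptors the difference was -7.83 for Rspo3, -6.09 for Rspo2, -2.35 for Tgfb2, -1.42 for Igf2 (below background on both YYFF L4 arrays), -4.02 for Pdgfra and -2.29 for Egfr. Chemokine genes gave -1.49 for Cxcl1, -3.43 for Cx3cl1 and -2.78 for Ppbp. It was 3.26 for Dusp1, 1.31 for Ccn2, -3.84 for Igtp and -3.75 for Fas.

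In the division and cell cycle genes the difference was 1.33 for Cep55, 1.37 for Pdcd6ip, 0.50 for Vps4a, 0.40 for Birc5 and -0.76 for Chmp2a. Cyclin genes gave 0.62 for Ccnd1 and 3.78 for Ccnd2, the second with both WT L4 arrays below background.

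The largest differences by the naming rule were 5.0 for Scara3, 4.53 for Ckb, 4.49 for Plxna2, 4.33 for Fez1, 4.13 for Ly6c1, 4.0 for Klf2, 3.42 for Ccdc68 and 3.30 for Renbp on the higher side. The value for Renbp has an SE of 0.81, with its WT L0 arrays at 5.86 and 8.15. On the lower side Ifi27l2a had -6.91, Ptn -6.80, Rcan2 -4.62, Hey1 -4.59, Stmn2 -4.54 and Ccdc3 -4.30, beside Rspo2 and Ogn above. Ptn and Rcan2 are not among the genes counted above as given for both clones. Fxyd6, below background at L4 in both clones, had 0.69.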

How the results depend on the processing

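The count of changed genes in YYFF L4 vs YYFF L0 was 2803 and ranged from 1874 to 2013 when 1 array was left out. With median scaling in place of quantile normalization it was 1789, and in the other settings it stayed within 1.5 times of 2803. Median scaling also gave 1295 genes for the clone difference, 683 for WT L4 vs WT L0, 1418 for YYFF L0 vs WT L0 and 69 for YYFF L8 vs YYFF L4. With the compared arrays alone in the fit WT L4 vs WT L0 gave 490 and YYFF L8 vs YYFF L4 gave 0 (1082 at an unadjusted p under 0.05). Leaving out 1 array gave 1512 to 1869 for the clone difference and 740 to 928 for WT L4 vs WT L0, with 740 and 843 when the first or second WT L0 replicate was left out and 851 for the second of WT L4. It gave 1505 to 1689 for YYFF L0 vs WT L0, with 1505 and 1526 for the first and second YYFF L0 replicate and 1554 for the first of WT L0, and 35 to 213 for YYFF L8 vs YYFF L4. No called change among the 293 named genes changed direction in YYFF L4 vs YYFF L0 in the settings run, and 44 lost their call under median scaling and 27 to 34 when 1 array was left out. The causes were not tested. Title numbers were checked as a pairing: deviations of same-numbered arrays correlated at 0.0248 to 0.354, positive in all 15 pairs of groups and above 0.1 in 13, with 0.179 for YYFF L4 and YYFF L0. The main fit took no pairing from the numbers, and what they stand for was not tested. The replicate block by titles gave 3149 genes and that by descriptions, which match the titles in 3 of 6 groups, 2586. Few arrays, and probes near background, limit the precision.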

Other observations

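The WT L8 arrays are on none of the tested contrasts above, though they share the model's estimate of the spread and are plotted. In YYFF, after 4 passages, Ly6c1 was at 12.43 and 12.18 in YYFF L4, against 7.60 and 7.76 in YYFF L0. Nsdhl, a sterol synthesis enzyme, was at 9.87 and 9.69 in YYFF L4, against 7.27 and 7.22 in YYFF L0, and the interferon-induced Oasl2 at 6.32 and 6.23 in YYFF L4, against 11.21 and 11.06 in YYFF L0. On the WT L8 arrays Ly6c1 was at 11.66 and 11.55, Nsdhl at 9.57 and 9.45 and Oasl2 at 5.55 and 5.47. These genes were picked after their values were seen, and no test was made.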
